A study of Homo sapiens with 4 samples.

Results

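Small nucleolar RNAs (snoRNAs) and small Cajal body RNAs (scaRNAs) were taken as every annotated gene of these gene types in GENCODE, which gave 991 genes of 62700 in all. Of these, 942 were annotated as snoRNA and 49 as scaRNA. By name, 313 began with SNORD (box C/D), 214 with SNORA (box H/ACA) and 24 with SCARNA, and 440 had other names, mostly identifiers and predicted copies. The crosslinking events of PR100-FLAG, a proline-arginine dipeptide repeat protein, were counted inside each gene on its strand.

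Improved iCLIP (iiCLIP) was used in HEK293T cells, a transformed human embryonic kidney line, to map where PR100-FLAG touches RNA. The cells were transiently transfected with a plasmid that carries PR100 with a triple FLAG tag, induced with 150 ng/ml doxycycline for 24 h and irradiated once with UV light at 160 mJ/cm2. The 4 libraries form 1 group, and complexes were purified by SDS-PAGE in replicates 1 to 3 and with beads in replicate 4. Each library holds cells that overexpress the tagged protein, and libraries of the controls were not analysed here, so the values carry no background measured without PR100-FLAG. The position before the start of each cDNA is the crosslinked one, and a unique cDNA there is called an event.

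Box C/D snoRNAs carry a C box near the 5′ end and a D box near the 3′ end, bind FBL, NOP56, NOP58 and SNU13, and most guide 2′-O-methylation of ribosomal RNA. Box H/ACA snoRNAs fold into hairpins that end in an ACA triplet, bind DKC1, GAR1, NHP2 and NOP10, and guide pseudouridylation. A few members of both classes serve cleavage of the ribosomal RNA precursor instead, and scaRNAs guide modification of spliceosomal RNAs in Cajal bodies. Most human members are cut out of the introns of host genes.

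The genes with the most events are the natural place to see where the crosslinks sit. The sequences below were read from GRCh38 5′ to 3′ on the strand of the gene. They are shown as examples of where events lay in single genes, and capitals mark the bases that each held 5% or more of the events of that gene over the 4 libraries.
SNORD24, chr9:133349396-133349470, plus strand: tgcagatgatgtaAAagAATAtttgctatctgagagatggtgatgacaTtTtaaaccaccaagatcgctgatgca
SNORD14E, chr11:123058077-123058161, minus strand: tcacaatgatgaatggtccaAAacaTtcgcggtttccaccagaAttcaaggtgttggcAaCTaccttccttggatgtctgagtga
SNORD18B, chr15:66502020-66502091, minus strand: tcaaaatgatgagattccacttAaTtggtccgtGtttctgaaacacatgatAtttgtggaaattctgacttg
SNORD57, chr20:2656939-2657010, plus strand: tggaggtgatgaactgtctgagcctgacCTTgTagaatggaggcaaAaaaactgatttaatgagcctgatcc
SNORD36C, chr9:133350847-133350912, plus strand: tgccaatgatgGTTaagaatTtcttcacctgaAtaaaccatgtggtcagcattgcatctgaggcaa
SNORD34, chr19:49490904-49490974, plus strand: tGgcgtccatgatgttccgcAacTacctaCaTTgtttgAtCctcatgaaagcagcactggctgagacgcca
SNORA48, chr17:7574713-7574847, plus strand: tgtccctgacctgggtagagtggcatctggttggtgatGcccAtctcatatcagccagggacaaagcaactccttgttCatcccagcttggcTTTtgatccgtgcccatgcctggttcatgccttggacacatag
The 8 marked bases of SNORD24 held 60.3% of its events, and the 4 of SNORD18B held 65.1%. In SNORD14E 7 bases held 57.9%, in SNORD57 5 bases held 68.5%, in SNORD36C 5 bases held 61.7%, in SNORD34 8 bases held 62.7% and in SNORA48 6 bases held 72.5%. None of the marked bases lay in the last 15 bases of a gene.

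The libraries differed in how much of their signal these genes took. They held 334057, 604816, 125694 and 179636 events in replicates 1 to 4, of which 1424, 2946, 581 and 2568 lay in snoRNA and scaRNA genes when overlapping genes were counted once. The share was 0.426% in replicate 1 (95% Wilson interval 0.405 to 0.449), 0.487% in replicate 2 (0.470 to 0.505) and 0.462% in replicate 3 (0.426 to 0.501). In the beads library it was 1.43% (1.38 to 1.49), above the range of the other libraries. These intervals cover counting error only. The mean was 0.701% ± 0.486 (SD, n = 4), or 0.459% without the beads library, and an exact permutation test of 1 library against 3 cannot give a p below 0.25. The part of the purification in this was not tested, and with 1 beads library it cannot be told apart from the library itself. Nothing in the labels says whether the replicates came from separate cultures, so the p-values below measure only the spread between these libraries.

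Of the 991 genes, 301 held at least 1 event, 170 held 10 or more over the 4 libraries and 68 held an event in every library. SNORD genes gave 141 of the 301, SNORA genes 111, SCARNA genes 21 and the other names 28. The events were concentrated, and 36 genes held 50% of the 7824 events counted gene by gene. Replicate 3 was the shallowest library, and 99 of the 170 genes had 0 events in it, against 10, 3 and 2 in replicates 1, 2 and 4. Events of replicate 3 were stacked on fewer bases, with 4.24 events per crosslinked position against 2.04, 2.40 and 1.79 in replicates 1, 2 and 4. By counts per 1000000 events of the library (CPM), 124 of the 170 genes were highest in the beads library, 90 of 110 SNORD genes and 25 of 48 SNORA genes among them. The 170 were chosen on sums that include the beads library, and 28 of them reached 10 events only with it. Among the 142 genes with 10 or more events in replicates 1 to 3 alone, 98 were highest in the beads library, 73 of 93 SNORD genes and 18 of 40 SNORA genes.

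Box C/D genes had the higher density. Scaled to length and depth, SNORD genes had 109, 118, 108 and 398 CPM per kb in replicates 1 to 4, and SNORA genes had 27.5, 40.2, 41 and 75.8. SNORD genes were above SNORA genes in 4 of 4 libraries, by 1.84 ± 0.45 on the log2 scale (SD, n = 4), which is 3.57-fold. An exact permutation test that flips the signs of the library values (two-sided) gave p = 0.13, which is 2 of 16 sign patterns and the smallest that 4 libraries can give, and 0.135 after Benjamini-Hochberg adjustment over the 14 ratios tested in this way. No ratio here can therefore pass 0.05, and the sizes, SDs and directions carry the comparisons. SNORD genes held 74.6%, 70.8%, 68.2% and 81.0% of the member events in replicates 1 to 4.

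SCARNA genes had 31.3, 29.7, 48.8 and 68.3 CPM per kb. The ratio to SNORA was -0.04 ± 0.32 on the log2 scale (SD, n = 4, exact p = 1), and it was above 0 in replicates 1 and 3 and below 0 in replicates 2 and 4. Its direction turned without replicate 2 (0.10), without replicate 4 (0.00092) and when each position was counted once (0.22). With genes of 10 or more events alone it was -0.97 ± 0.45, below 0 in 4 of 4 libraries. Genes with other names had 5.56, 3.85, 3.30 and 13.8 CPM per kb, below every named class in every library. The annotated small nuclear RNA genes had 7.83, 9.73, 14.6 and 9.91, and microRNA genes had 2.80, 6.04, 5.28 and 6.33. All snoRNA and scaRNA genes as 1 set lay 2.34 ± 0.92 above the small nuclear RNA genes and 3.41 ± 0.70 above the microRNA genes on the log2 scale (SD, n = 4, exact p = 0.13 for each). How much of the small nuclear RNA and microRNA genes can be read by uniquely mapping reads was not computed.

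The signal stood out from the introns that the snoRNAs are cut from. Inside canonical introns of protein-coding or lncRNA hosts, 402 members had at least 50 nt of intron left for comparison, in 375 introns of 272 hosts. These members had 41.2, 45.7, 46.8 and 124 CPM per kb in replicates 1 to 4, and the rest of the same introns had 0.321, 0.206, 0.265 and 0.186. The members were higher by 7.91 ± 1.03 on the log2 scale (SD, n = 4, exact p = 0.13), 241-fold, in 4 of 4 libraries. In counts, 46530 nt of members held 3235 events, and 9440444 nt of intron held 2818. The introns are longer by far, and the abundance of mature snoRNA and of unspliced host RNA was not measured here, so occupancy per molecule is not given by this ratio.

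The difference from the intron was seen for each class. SNORD genes lay 8.95 ± 1.01 above their introns, SNORA genes 6.73 ± 1.05 and SCARNA genes 4.76 ± 1.36 on the log2 scale (SD, n = 4, exact p = 0.13 for each). Members in protein-coding hosts lay 8.08 ± 1.04 and those in lncRNA hosts 7.10 ± 0.99 above their introns. The exons of the hosts, which make the spliced RNA, had 6.42, 9.78, 6.39 and 15.5 CPM per kb. The members were 2.70 ± 0.34 above them on the log2 scale (SD, n = 4, exact p = 0.13), 6.48-fold, and the beads library was the highest for both.

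The gene with the most events lay in no canonical host intron. SNORD118 (U8), which serves the maturation of 5.8S and 28S ribosomal RNA, lies at chr17:8173454-8173587 on the minus strand, inside the interval of TMEM107. It had 323, 180, 183 and 701 CPM in replicates 1 to 4, or 366 events in all, and the beads library was highest. Of its events, 90% lay between positions 16 and 107 of 134, and the most frequent base was position 47 with 12.6%. By library, the most frequent base was position 47, 47, 22 and 46 in replicates 1 to 4. Within 2 nt of position 47 lay 44.4%, 30.3%, 13% and 41.3% of the events of these libraries. Replicate 3, where the site differed, held 23 events of this gene.

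SNORD24, a methylation guide in an intron of RPL7A (ribosomal protein L7a), had 135, 205, 215 and 646 CPM, or 312 events. SNORD14E (U14), which serves 18S processing and lies in an intron of the chaperone gene HSPA8, had 120, 97.6, 199 and 328 CPM. SNORD57, in an intron of NOP56, had 83.8, 89.3, 55.7 and 334 CPM. In each of these 3 genes the beads library was the highest, and the SDS-PAGE libraries all lay below it.

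SNORD18B, a methylation guide in an intron of RPL4, had 98.8, 44.6, 87.5 and 451 CPM. A single base carried 46.7% of its events, position 23, and this base was the most frequent one in each of the 4 libraries. Between 51.9% and 100% of the events of a library lay within 2 nt of it. A second annotated gene, ENSG00000280554, covers nearly the same bases (chr15:66502019-66502089) and its 148 events are the same molecules. SNORD36C, in another intron of RPL7A, had its most frequent base at position 14 with 26.7% of 120 events.

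Other genes kept no site common to all 4 libraries, and some library counts were small. In SNORD17, in an intron of SNX5 (sorting nexin 5), the most frequent base was position 19, 73, 220 and 73 in replicates 1 to 4. These libraries held 20, 60, 9 and 48 of its events, of which 5%, 20%, 0% and 52.1% lay within 2 nt of position 73. In SNORD34, in an intron of RPL13A, the most frequent base was position 39, 24, 16 and 2, from 34, 30, 7 and 47 events. SNORD2, in an intron of EIF4A2, had 38.9, 67.8, 39.8 and 278 CPM, and its most frequent base was position 1, the first of the gene, in replicates 2 and 4.

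Only 1 SNORA and 1 SCARNA gene were among the 15 genes with the most events. SNORA48, a pseudouridylation guide in an intron of EIF4A1, had 53.9, 49.6, 215 and 89.1 CPM, and here replicate 3 and not the beads library was the highest. Its most frequent base was position 95 in replicates 1 and 2, position 79 in replicate 3 and position 43 in replicate 4. SCARNA2, a guide for U2 small nuclear RNA, had 53.9, 69.4, 87.5 and 111 CPM and a spread of sites with at most 11% of events on 1 base. SCARNA2 and the next SCARNA gene held 50% or more of the 209 events of that class.

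Annotated copies limit what some values mean. The authors kept reads that map to a single place, and for each gene the share of its 31-nt words that occur once in the genome was computed. In SNORD3A (U3), which serves the first cleavages toward 18S ribosomal RNA, that share was 0.15% over an annotated interval of 699 nt. Even so it had 92.8, 109, 270 and 985 CPM, or 308 events, of which 90% lay between positions 23 and 77. SNORD3B-1, SNORD3C, SNORD3D and SNORD3B-2 had 10, 8, 2 and 1 events, and how reads were split between these copies is uncertain. Of the 48 members with fewer than 10% of words found once, 5 had an event, against 252 of the 757 members with 90% or more.

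A gene named U8 at chr11:123301390-123301523 on the plus strand had 83.8, 69.4, 0 and 139 CPM, or 95 events. It is 134 nt long like SNORD118, and 97.1% of its words occur once. Of its events, 92 lay in the last 40 nt, against 47 of 366 in SNORD118. Over the last 30 bases the copies differ by 1 substitution, G24A, counted from the first of these bases with the base of SNORD118 first. Which of the loci made these molecules is uncertain.

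Members that serve processing of the ribosomal RNA precursor were listed by name. The list of U3, U8, U13, U14, U22 and U17 genes matched 17 gene entries under 15 names, of which 17 had an event, 12 had 10 or more, and 11 overlapped a significant cluster. Over all 991 members, 30.4% had an event and 16.8% overlapped a cluster. The list left out annotated copies named U3, of which 1 of 50 had an event, and U8, of which 4 of 22 had one. SNORA73A and SNORA73B (U17), both in introns of RCC1, had 66 and 47 events. SNORD14A to SNORD14D had 31, 45, 72 and 14 events beside the 183 of SNORD14E. SNORD13 (U13) had 35.9, 33.1, 0 and 189 CPM, and SNORD22 (U22), in an intron of SNHG1, had 26.9, 61.2, 0 and 156 CPM. A second entry named SNORD22 in the same host had 2 events.

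The imprinted C/D arrays held no events. None of the 122 genes named SNORD113, SNORD114, SNORD115 or SNORD116 held an event in any library. For a gene that uniquely mapping reads can reach, a count of 0 allows up to 3 events, or 2.41 CPM over the 4 libraries. The median share of words that occur once was 100% for SNORD113 and SNORD114, 43.7% for SNORD115 and 58.1% for SNORD116, so the last of these sets are read less completely. In SNORD115 and SNORD116 the lowest share was 0%, and for copies with no such word the limit cannot be given. MEG8 and SNHG14, lncRNA hosts with 35 members each in canonical introns, had 1 and 0 events in the rest of those introns, and their RNA level was not measured here.

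Members that share a host transcript differed widely. Of 16 hosts with 4 or more members in canonical introns, 14 had an event in a member. In RPL7A the 4 members had 312, 120, 31 and 5 events (SNORD24, SNORD36C, SNORD36B and SNORD36A), and 1 event lay in 566 nt of remaining intron. In RPL4, SNORD18B had 152 events, SNORD18C 79, SNORD18A 78 and SNORD16 64, with 0 events in 762 nt of remaining intron. Each of these sets comes from the introns of 1 host transcript.

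NOP56, whose protein is itself a core part of box C/D particles, hosts SNORD57 with 149 events, SNORD110 with 79, SNORD56 with 69, SNORA51 with 17 and SNORD86 with 0. The lncRNA host SNHG1 had 7 members with 2 to 74 events and 1 event in 734 nt of remaining intron. In EIF4A2, SNORD2 had 109 events, SNORA81 51, SNORA63 45, SNORA4 13 and SNORA63B 0. In SNHG7 the 4 entries lay between 26 and 29 events, and they form 2 pairs that cover nearly the same bases.

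Along the gene, events in SNORD genes lay toward the 5′ end. With each gene cut into 10 bins of equal length, bin 1 at the 5′ end held 20.8% ± 7.0 of the events (SD, n = 4), bin 3 held 18.7% ± 0.9 and bin 4 held 15.2% ± 1.9. SNORD3A, with its long annotated interval, gave 271 of the 1096 events of bin 1, and without it bin 1 held 16.7% ± 5.3, below the 19.6% ± 0.6 of bin 3. Bin 8 held 4.36% ± 1.8, bin 9 held 0.622% ± 0.332 and bin 10 held 0.336% ± 0.609. Past the midpoint there were fewer events than before it, by 1.49 ± 0.29 on the log2 scale (SD, n = 4, exact p = 0.13), in 4 of 4 libraries. Without the last 30 nt of each gene this difference was -0.59 ± 0.49, with -0.05, -0.52, -1.25 and -0.53 in replicates 1 to 4. In replicate 1 it was therefore near 0. With whole genes of at most 400 nt, which leaves out SNORD3A, the difference was -1.37 ± 0.24. It was not computed without both SNORD3A and the last 30 nt. Bin 1 also holds positions 1 and 2, the first bases of the gene, with 270 and 184 events. There, crosslinks cannot be told from cDNAs that ran to the end of the RNA, and the difference was not computed without these positions. A cDNA that begins near the 3′ end of a short RNA is itself short and can be lost in mapping, so nothing is read from the empty end.

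SNORA genes went the other way. Their bins 6 to 9 held 13.9% ± 6.0, 14.8% ± 6.4, 18.3% ± 7.4 and 12.7% ± 4.6 of the events, and bin 10 held 0.104% ± 0.208. Bins 1 to 5 held between 6.24% and 10.3% each. Past the midpoint there were more events, by 0.58 ± 0.26 on the log2 scale (SD, n = 4, exact p = 0.13), in 4 of 4 libraries. With the gene cut into 3 bins and the last set against the first, this was 0.26 ± 0.38. The values were 0.825, 0.013, 0.170 and 0.041 in replicates 1 to 4, so replicate 1 gave most of that mean. Bin 10 was nearly empty in both classes, and the 2 classes differed in sign in each library.

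A pile of events sat at the 5′ end of SNORD genes. With position 1 as the first annotated base, positions -2 to 2 held 171, 406, 366, 270 and 184 events, against 64 at position -3 and 69 at position 3. The base before the gene, position 0, held 2.24 ± 0.31 more on the log2 scale than the mean of the 10 bases on either side (SD, n = 4, exact p = 0.13) over all classes, and 1.43 against 5 bases on either side. A cDNA that runs to the 5′ end of a mature RNA is assigned to the base before it, so stops at a crosslink and cDNAs that ran to the end cannot be told apart at these positions. SNORA genes had 35 and 19 events at positions -1 and 0, and SCARNA genes had 21 and 7.

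The annotated ends vary by a few bases, so SNORD genes were also aligned to the C box. The letters TGATGA were found in the first 20 nt of 205 of 313 SNORD genes (65.5%) and CTGA, the D box, in the last 15 nt of 273 (87.2%), on the strand of the gene. In SNORA genes the same letters were found in 0.467% and 3.74% of 214 genes. Both boxes were found in 194 SNORD genes, of which 80 had an event. The other 119 SNORD genes were not aligned, and 61 of them had an event. SNORD24, SNORD36C and SNORD34, with 312, 120 and 118 events, were among these. TGATGA was not found in their first 20 nt, so the profile leaves out their events. The windows below were chosen after the profile was seen and carry no test. From 10 to 6 nt before the C box, 5 bases held 33.1% ± 5.9 of the aligned events (SD, n = 4), or 1153 of 3535. This window is the 5′ end of the genes, so it takes in the pile described above. Crosslinks and cDNAs that ran to the end of the RNA cannot be told apart in it. The 12 bases from 3 nt before the C box to 3 nt after it held 5.87% ± 1.04, 221 events or 18.4 per base.

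Just downstream, from 9 to 19 nt after the first base of the C box, events rose again. These 11 bases held 26.8% ± 1.7, or 933 events at 84.8 per base. The shares ran from 24.8% to 28.7% over the libraries, and those before the C box from 25.8% to 39.6%. The next 21 bases held 22.0% ± 6.3, or 37.7 events per base. The single base 16 nt after the start of the C box held 154 events, of which SNORD18B gave 71. Without SNORD18B it held 83, below the 113 and 114 at 14 and 15 nt, and the 11 bases held 24.8% ± 2.1, or 75.5 events per base. Single genes differed: the marked bases of SNORD18B lay 16, 18, 27 and 45 nt after the start of its C box, those of SNORD14E between 14 and 55 nt, and those of SNORD57 between 22 and 40 nt, outside the window. Around the D box, from 8 nt before it to 10 nt after its start, 1 event was found in all, and cDNAs that begin there can only be short.

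The crosslinked base was compared with the base composition of the same genes, weighted by their events and without the last 20 nt. In SNORD genes U made up 37.7% ± 3.4 of crosslinked bases against 30.2% of the genes, and was higher in 4 of 4 libraries. G made up 16.4% ± 1.0 against 23.8% and was lower in 4 of 4. The log2 ratios were 0.32 ± 0.14 for U and -0.54 ± 0.09 for G (SD, n = 4, exact p = 0.13 for each, 0.333 after adjustment over 8 base tests). In SNORA genes G was also lower, 17.7% ± 2.6 against 25.6%, with a log2 ratio of -0.54 ± 0.24 (exact p = 0.13). U in SNORA genes was 35.6% ± 6.3 against 28.2%, and in replicate 3 it was level with the genes. UV light itself joins some bases to protein more readily than others, and the part of that in these shares was not tested. Events at the 5′ end were kept in, and 270 SNORD events lay at position 1. That base is T in each SNORD sequence shown above. Some of these events may be cDNAs that ran to the end, and the shares were not computed without them.

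GAAGA, the pentamer for which the study followed PR100 binding further, was looked up on the strand of the genes with at least 1 event. It was present in 25 of 141 SNORD genes (17.7%) and 21 of 111 SNORA genes (18.9%). In SNORD genes, 9.59% ± 0.80 of events had a GAAGA that began between 5 nt upstream and 30 nt downstream, against 5.32% ± 1.41 of the positions of the same genes, and this held in 4 of 4 libraries. In SNORA genes it was 4.59% ± 1.52 of events against 5.72% ± 0.68 of positions, and events were above positions in 1 library. SNORD genes that carry GAAGA had a lower density of events than those that do not, by 1.55 ± 0.33 on the log2 scale (SD, n = 4), lower in 4 of 4 libraries. Density is per annotated length, and SNORD genes ran from 59 to 791 nt with a median of 81 nt. The GAAGA values were not computed without SNORD3A or the other long genes, so the part of these genes in them is not known.

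Significant clusters, which the authors called on the pooled libraries with iCount (false discovery rate under 0.05), overlapped 166 of the 991 genes (16.8%). Over all 62700 annotated genes the share was 4.53%, and over the 12217 genes no longer than 400 nt it was 2.27%. A cluster needs many cDNAs at 1 place, so this count follows the number of events, and 89.9% of the member events lay inside clusters. By class, 110 SNORD genes (35.1%), 47 SNORA genes (22.0%), 3 SCARNA genes (12.5%) and 6 with other names (1.36%) overlapped one. In the lists of single libraries, clusters overlapped 45, 115, 21 and 86 members in replicates 1 to 4. Members took 163 of the 5596 pooled clusters, or 2.91%.

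The genes for the proteins of these particles were described beside them. Of 18 genes for core proteins and assembly factors, 7 overlapped a pooled cluster outside any snoRNA (38.9%), against 11.2% of all 20046 protein-coding genes. They were FBL, NOP56, NOP58, DKC1, GAR1, NOLC1 and TCOF1. TCOF1, a nucleolar phosphoprotein, had 69, 179, 6 and 104 events in replicates 1 to 4, NOP56 had 75, 135, 23 and 94 outside its snoRNAs, and NOP58 had 65, 111, 32 and 55. FBL, the methyltransferase, had 61 events in all, and SNU13, NHP2 and NOP10 had 26, 9 and 5, with no cluster. Cluster calls follow depth and expression, which was not measured here.

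The rank of the genes was only partly shared by the libraries. Over the 170 members with 10 or more events, Spearman's rho of CPM was 0.504 between replicates 1 and 2, 0.582 between 1 and 4 and 0.652 between 2 and 4. It was 0.288, 0.264 and 0.288 between replicate 3 and replicates 1, 2 and 4. Genes are not independent replicates, the 170 were chosen on the summed events, and these values are a description. SNORD118 ranked 1, 2, 5 and 2 among all members in replicates 1 to 4, and SNORD24 ranked 2, 1, 2 and 3.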

How the data were processed

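Unique cDNA counts per position and strand were deposited by the authors for 4 iiCLIP libraries of PR100-FLAG and for their sum. Per the paper's methods, reads were mapped with STAR (version not given in the sources used here) to GRCh38 with GENCODE 27, up to 2 mismatches were allowed, reads that mapped to a single place were kept and PCR copies were collapsed by random barcode (7 nt, and 5 nt in replicate 3). Clusters were called by the authors with iCount, and their deposited values are summed counts with no normalization. No count was rescaled before counting here.

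Genes came from GENCODE 44 on GRCh38, a later version than the authors used. Events inside each gene on its strand were summed, CPM used the total of each library (125694 to 604816 events), and 1 event in replicate 3 is therefore worth more CPM than elsewhere. Sums over genes counted overlapping genes once. Host introns came from canonical transcripts, without annotated exons and without small RNA genes widened by 50 nt. Log2 ratios within each library were tested by an exact permutation of their signs over libraries (two-sided), adjusted after Benjamini and Hochberg. Words of 31 nt were searched in the whole genome on both strands. The counting was tested on simulated data.

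Named genes were the 15 with the most events, the 5 of highest event density (minimum 20 events), the SCARNA gene with the most events, and a list that serves ribosomal RNA processing, and not all are described. Hosts with 4 or more members and the windows around the C box were chosen after values were seen. The members and all lists were chosen with earlier results of these data known. In all, 75 alternatives were planned and 4 were added after seeing the data, as were the values given without SNORD18B, without SNORD3A and with genes chosen on replicates 1 to 3 alone. The computations ran in Python 3.11.15 with pysam 0.24.0, pandas 2.3.3, numpy 2.4.6 and, for tests and figures, scipy 1.17.1 and matplotlib 3.10.9.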

Additional observations from a re-analysis of the deposited data

Results flagged for a closer look

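Of 41 sets of 4 library values, 7 held 1 library whose gap to the nearest other library took more of the whole range than Dixon's 95% limit allows, and chance gives about 1 such set in 20. In all 7 the library that stood apart was the beads library, replicate 4. They were the share of events in snoRNA and scaRNA genes (1.43%), the density of SNORD genes (398 CPM per kb), and the levels of SNORD24 (646 CPM), SNORD18B (451 CPM), ENSG00000280554 (429 CPM, the same events as SNORD18B), SNORD57 (334 CPM) and SNORD2 (278 CPM). The other libraries lay at 0.426% to 0.487% for the share and at 108 to 118 CPM per kb for SNORD density. The values are not independent, since these genes are part of the share and of the density. The beads library is the only one of its purification, and the part of the purification was not tested.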

How the results depend on the processing

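Of 77 alternatives for values with an SD, 66 left the value in the same direction and within 1 SD of the reported one. A ratio cannot pass 0.05 with 4 libraries under any of them. The SCARNA to SNORA ratio turned from -0.04 to 0.22 with each position counted once, 0.10 without replicate 2 and 0.00092 when replicate 4 was left out, and was -0.97 with genes of 10 or more events. That minimum moved the SNORD to SNORA ratio to 1.37 and the ratio to host exons to 3.13, and counting each position once moved the latter to 2.31. The last against the first of 3 equal bins gave -2.57 for SNORD and 0.26 for SNORA genes, leaving out the last 30 nt gave -0.59 for SNORD genes, and 5 bases on either side gave 1.43 for the base before the 5′ end. With each library left out in turn, the share ran from 0.459% to 0.793%, and log2 ratios from 1.65 to 1.98 (SNORD to SNORA), -0.13 to 0.10 (SCARNA to SNORA), 7.42 to 8.21 (host introns), 2.59 to 2.85 (host exons), -1.60 to -1.37 and 0.45 to 0.65 (3′ to 5′ side, SNORD and SNORA) and 2.11 to 2.34 (base before the 5′ end). The cluster count was 124 with at least 20 cDNAs and 161 with 50% of the cluster inside the gene, and clusters were not called again without a library. The cause of these moves was not tested. No paired analysis was possible because the libraries form 1 group. Replicate 3 held 581 member events, and 99 of 170 genes had none in it.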
